A study of Mus musculus with 6 samples.

Results

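The 45 genes described here code for the machinery that takes up and breaks down glucose, for glycogen and pentose phosphate enzymes, and for the hypoxia response. They were taken by their symbols from an RNA sequencing table of 54532 genes, where they filled 46 rows, because Aldoa was listed a second time at under 1 FPKM. FPKM is the number of fragments per kilobase of gene and per fixed number of fragments sequenced. The cells were neutrophils isolated from the bone marrow of C57BL/6J mice, held in culture for 2 h and then given live *Candida albicans*, a fungal pathogen, for 6 h. There were 3 WT libraries (replicates 1 to 3) and 3 PGRN KO libraries (replicates 4 to 6), the latter from mice that lack progranulin (PGRN, the product of Grn) in every tissue. Both genotypes received the fungus, although the WT libraries are titled as controls, so the values show a difference between genotypes under challenge and not a response to the fungus. The WT and PGRN KO mice came from different suppliers, so genotype and supplier cannot be told apart. The published methods state that mice were matched for sex and age, and the sources used here do not say how many animals each library stands for.

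Glycolysis turns glucose into pyruvate through a chain of cytosolic enzymes, and lactate dehydrogenase then turns pyruvate into lactate, which leaves the cell through a transporter. Neutrophils hold few mitochondria and rely on this route for ATP, and they also keep glycogen as a store and feed the pentose phosphate pathway, which makes the NADPH used by the respiratory burst. HIF-1, a pair of the oxygen-regulated subunit HIF-1α (Hif1a) and its partner ARNT, switches on many glycolytic genes when oxygen is low or when phagocytes are activated. The prolyl hydroxylases coded by the Egln genes mark HIF-1α for breakdown when oxygen is present.

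Total depth was 17290604 to 17799798 fragments on genes in WT and 17087344 to 18821091 in PGRN KO. Grn stood at 168, 161 and 166 FPKM in the WT libraries and at 0.242, 0.206 and 0.747 FPKM in the PGRN KO libraries, as the labels say. Neutrophil markers, 13 in all, made up 17.2% ± 0.417 (SD, n = 3) of the summed FPKM in WT and 19.2% ± 1.13 in PGRN KO. Every one of the 13 was detected. S100a9, the most abundant, was at a mean of 31333 FPKM in WT and 36371 FPKM in PGRN KO and was not called. The limma test described further on called Mmp9 higher and Csf3r and Mmp8 lower. Of the 13 log2 fold changes, 7 were negative and 6 positive. Of 8 monocyte and macrophage markers, C1qa and C1qb were at or near 0, whereas Ly6c2 (401 FPKM in WT), Adgre1 (46.3) and Csf1r (45.6) were not. Of 5 T and NK cell markers, Cd3e and Cd3g were at 0 and Ncr1 near 0, Cd3d was at 0.433 FPKM in WT, and Nkg7 was at 2.54 FPKM in WT and 7.79 FPKM in PGRN KO and was called higher. Markers of further cell types were called higher in PGRN KO by the same test. These were 5 of 5 promyelocyte, 7 of 10 dividing cell, 5 of 6 tested B and plasma cell, and 4 of 5 basophil and mast cell genes. Of all genes tested, 7.94% were called higher. Fewer cells of a type and less RNA per cell cannot be told apart in such bulk samples.

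The question put to these genes was whether the glycolytic and hypoxia program of neutrophils meeting the fungus differed without PGRN. Part of it did on the deposited scale. The genes for glucose entry by GLUT1, for the hexokinases Hk1 and Hk2, for the liver-type phosphofructokinase Pfkl with its activating enzyme Pfkfb3, for Pgam1 and for the growth factor Vegfa were lower in PGRN KO. Pkm and P4ha1 completed the 9 that fell, which dropped by 10.3% for Pkm at the least and 41.9% for Vegfa at the most. Aldoc, Pfkm, Gpi1 and Tkt were higher. Of 46 rows, 4 were thus called higher and 9 lower, against 7.94% and 9.95% of all genes tested. The higher calls were near the share over all genes, and only Aldoc among them was called under every alternative tried. Lactate dehydrogenase, most of the abundant glycolytic enzymes, the glycogen genes and the oxygen-sensing genes did not pass the test.

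Genotypes were compared with limma on log2(FPKM + 1), over the 14807 genes with a mean of at least 0.1 FPKM, and a gene was called at an adjusted p under 0.05. All 46 rows passed this filter. Of them, 4 were called higher and 9 lower in PGRN KO, and 33 were not called. This makes 28.3% called, against 17.9% of all genes tested, with 7.94% of all genes called higher and 9.95% called lower. In 28 rows (60.9%) the 3 PGRN KO values lay wholly on one side of the 3 WT values, 10 above and 18 below, against 37.7% of all genes. The median log2 fold change was -0.054 over the 46 rows and 0.0026 over all genes tested. On this scale fold changes understate the change of genes of a few FPKM or less.

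The split between higher and lower turned on how the libraries were scaled. Scaling each library by its median ratio to the gene means over all libraries left the deposited result as it was, with 4 called higher and 9 lower. The deposited values were divided by library sizes other than the plain totals of fragments. Scaling to plain totals raised PGRN KO over WT by a median of 0.12 on the log2 scale in the 33 members with a mean of at least 50 FPKM. With plain totals 13 members were called higher and 6 lower, against 14.5% and 6.29% of all genes, and the median log2 fold change was 0.067 both over the members and over all genes. Vegfa, Pfkl, Pfkfb3, Slc2a1, Pgam1, Hk2 (all lower) and Aldoc (higher) were called under all 16 alternatives tried. The calls of Hk1, P4ha1 and Pkm were lost with plain totals, and the number called higher fell from 4 to 1 or 2 when any one library other than PGRN KO replicate 6 was left out.

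**Figure D1:**
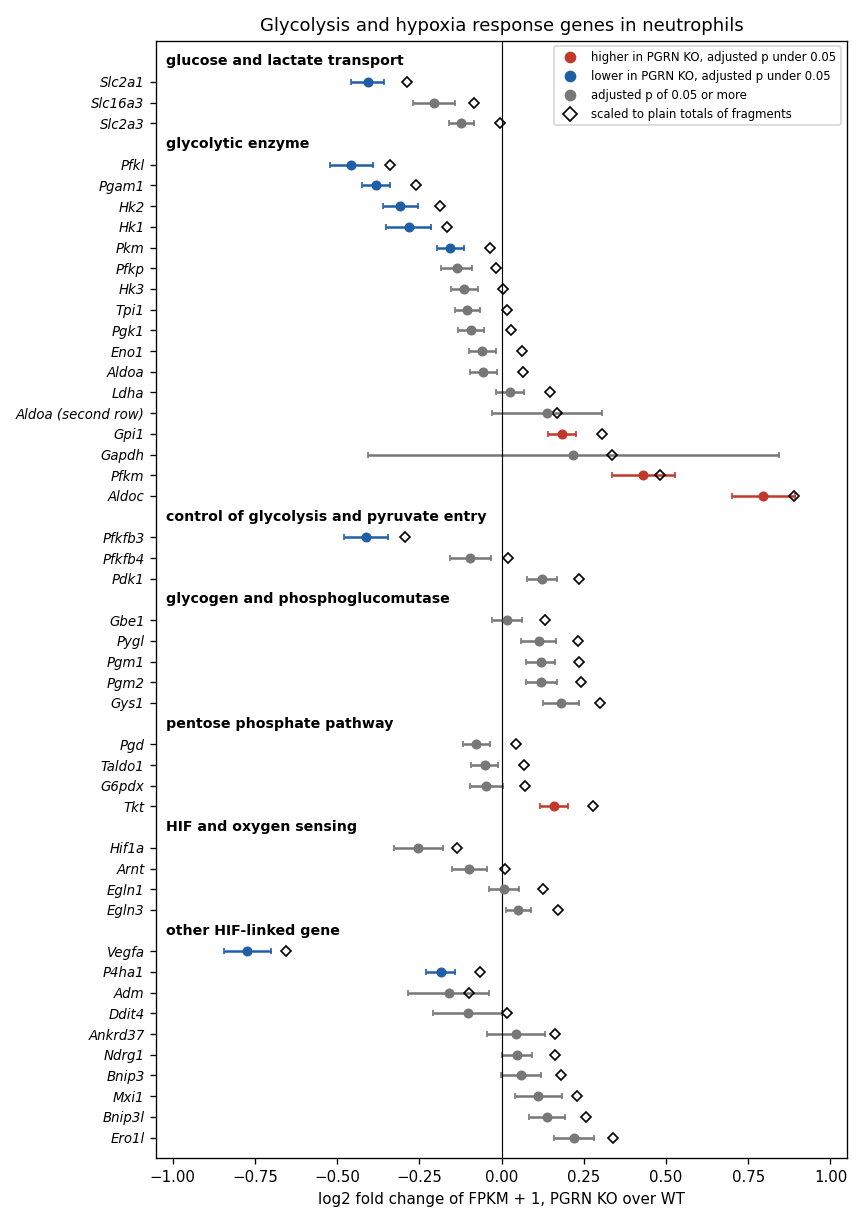
Log2 fold change (PGRN KO over WT, of FPKM + 1; horizontal axis) of each member, grouped by role, with bars of 1 SE from limma (n = 3 libraries per genotype). Blue points were called lower, red points higher, grey points were not called, and open diamonds give the same fold change with libraries scaled to plain totals; Vegfa lies farthest left at -0.77 and Aldoc farthest right at 0.80.

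The core sequence to which HIF-1 binds, the hypoxia response element, was looked for in the promoters of these genes, since a shared element is what links many of them in textbooks. RefSeq promoter windows on GRCm38.p6 run from 250 bases before to 50 bases after a gene's start, and 42 members had 59 such windows. The cores ACGTG and GCGTG were searched on both strands, where a CACGTG counts once on each strand at overlapping positions. At least 1 core stood in 47 of the 59 windows (79.7%), against 43.8% of all 32851 windows and 49.3% of 21263 windows of protein-coding genes. The core ACGTG alone stood in 54.2% of member windows and in 19.6% of all windows. Median GC content was 61% in the member windows and 56.3% in protein-coding windows, and its part in this difference was not tested. Counted by gene, a core stood in any window of 9 of the 9 members called lower and 3 of the 4 called higher. The same held for 26 of the 29 not called that had a window, so holding one did not separate the genes by call. The shares of all windows above are per window and give no background for these counts by gene. The windows of the called genes with the largest changes follow, with each core in capitals, printed 5′ to 3′ on the strand of the gene.
Slc2a1 (chr4:119108495-119108794, plus strand): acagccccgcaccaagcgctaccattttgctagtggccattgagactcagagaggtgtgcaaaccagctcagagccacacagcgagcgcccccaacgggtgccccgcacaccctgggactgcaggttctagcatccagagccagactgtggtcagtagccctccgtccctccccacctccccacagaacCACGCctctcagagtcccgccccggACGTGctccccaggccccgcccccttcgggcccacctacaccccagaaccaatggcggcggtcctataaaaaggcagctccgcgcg
Pfkfb3 (chr2:11553880-11554179, minus strand): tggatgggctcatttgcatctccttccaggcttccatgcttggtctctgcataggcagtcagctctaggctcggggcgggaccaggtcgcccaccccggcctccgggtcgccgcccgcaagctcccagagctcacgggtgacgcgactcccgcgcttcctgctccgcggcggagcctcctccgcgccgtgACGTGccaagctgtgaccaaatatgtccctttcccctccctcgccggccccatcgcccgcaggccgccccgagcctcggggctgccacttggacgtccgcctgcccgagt
Pfkl (chr10:78009758-78010057, minus strand): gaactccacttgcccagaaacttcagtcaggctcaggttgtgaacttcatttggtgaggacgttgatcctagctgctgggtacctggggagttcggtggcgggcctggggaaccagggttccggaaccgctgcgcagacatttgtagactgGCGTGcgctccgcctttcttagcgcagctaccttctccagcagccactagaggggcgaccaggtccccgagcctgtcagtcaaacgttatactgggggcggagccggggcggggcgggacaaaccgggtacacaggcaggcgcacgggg
Aldoc (chr11:78322823-78323122, plus strand): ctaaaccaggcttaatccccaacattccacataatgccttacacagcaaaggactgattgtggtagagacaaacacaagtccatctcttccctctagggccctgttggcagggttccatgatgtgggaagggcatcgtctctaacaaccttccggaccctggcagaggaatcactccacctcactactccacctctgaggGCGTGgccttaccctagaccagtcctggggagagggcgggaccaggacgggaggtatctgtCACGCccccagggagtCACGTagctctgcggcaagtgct
Pfkm (chr15:98092339-98092638, plus strand): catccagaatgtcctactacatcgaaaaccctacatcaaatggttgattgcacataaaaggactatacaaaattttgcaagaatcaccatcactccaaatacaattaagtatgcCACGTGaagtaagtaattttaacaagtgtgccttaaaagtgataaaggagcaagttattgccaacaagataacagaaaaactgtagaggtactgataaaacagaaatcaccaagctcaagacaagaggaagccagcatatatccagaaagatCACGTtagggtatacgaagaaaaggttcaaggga

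These are the outermost windows of each gene. In the Slc2a1 window a core on the minus strand began at -61 and one on the plus strand at -36, counting the start as 0, and in the Pfkfb3 window a single core began at -60. The Pfkl window held 1 core, at -99. Aldoc and Pfkm, which were higher in PGRN KO, held 3 cores each, so cores were present in genes that moved either way. The outermost window of Vegfa, the gene with the largest drop, held none, and another window of Vegfa, inside the gene, held 2 cores. A match of letters does not show that HIF-1 was bound there.

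Glucose enters neutrophils through the GLUT1 and GLUT3 transporters, coded by Slc2a1 and Slc2a3, and lactate leaves through MCT4, coded by Slc16a3. Slc2a1 (ENSMUSG00000028645, chr4:119108711-119137983) was at 302, 305 and 292 FPKM in the WT libraries and at 239, 215 and 224 FPKM in the PGRN KO libraries. All PGRN KO values lay below all WT values, and the level fell by 24.6% (log2 fold change -0.41 ± 0.049 SE, limma adjusted p = 0.0031). Slc2a3 was at 132, 136 and 136 FPKM in WT and at 120.2, 125 and 125 FPKM in PGRN KO, and Slc16a3 was at 419, 413 and 386 FPKM in WT and at 382, 340.1 and 334 FPKM in PGRN KO. Neither of these overlapped between genotypes, but neither passed the test (limma adjusted p = 0.073 and 0.072). With plain totals the log2 fold change of Slc2a3 was -0.0034 and that of Slc16a3 -0.085, while that of Slc2a1 was -0.29 and remained called.

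The share of each isoenzyme within its family does not depend on the scaling of the library. Slc2a1 took 69.6%, 69.2% and 68.2% of the Slc2a1 and Slc2a3 sum in WT, and its share in PGRN KO was 66.5%, 63.2% and 64.1%. Every PGRN KO share was below every WT share, a difference of -4.39 percentage points. For 3 against 3 libraries the two-sided exact permutation test cannot go below p = 0.1, which this share reached. Over the 18 shares of 8 families, 11 did not overlap between genotypes, each at this smallest exact p (0.16 after Benjamini-Hochberg adjustment over the 18), so no share could pass 0.05. Where a family held only a pair of genes, their shares mirror each other, so the 11 are not separate results. The adjustment treats the 18 as separate tests, and no background for such shares was computed.

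Hexokinases trap glucose in the cell by phosphorylating it, and neutrophils expressed Hk1, Hk2 and Hk3. Hk2, the form induced by HIF-1, was at 89.5, 96.6 and 90.3 FPKM in WT and at 78.7, 71.6 and 72.6 FPKM in PGRN KO. It fell by 19.4% with no overlap (log2 fold change -0.31 ± 0.054 SE, limma adjusted p = 0.011). Hk1, the widely expressed form, was at 55.1, 56.7 and 53.9 FPKM in WT and at 49.6, 45.01 and 41.4 FPKM in PGRN KO, and it fell by 17.9% (limma adjusted p = 0.033). The Hk1 call was lost with plain totals (adjusted p = 0.14) and without any one of 5 of the 6 libraries, the exception being PGRN KO replicate 4. Hk3, typical of myeloid cells, was at 90.6, 88.0 and 85.9 FPKM in WT and at 83.3, 79.7 and 81.3 FPKM in PGRN KO. Its PGRN KO values were the lower ones, but the difference did not pass the test (limma adjusted p = 0.10) and its log2 fold change turned from -0.11 to 0.0056 with plain totals. Within the family, Hk3 made up 37.4% ± 1.04 (SD, n = 3) in WT and 40.5% ± 1.14 in PGRN KO, and Hk2 39.1% ± 0.998 in WT and 36.9% ± 0.420 in PGRN KO, both without overlap.

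Phosphofructokinase commits sugar to glycolysis, and PFKFB3 makes fructose-2,6-bisphosphate, its strongest activator. Pfkl (ENSMUSG00000020277, chr10:77986947-78010083), the liver-type subunit and the main one here, was at 164, 163 and 150.2 FPKM in WT and at 125, 114 and 108 FPKM in PGRN KO. Its PGRN KO values were all lower, by 27.3% on average (log2 fold change -0.46 ± 0.065 SE, limma adjusted p = 0.0056). Pfkfb3 (ENSMUSG00000026773, chr2:11471433-11554077) was at 219, 229.9 and 234 FPKM in WT and at 188, 162 and 163 FPKM in PGRN KO. This was a drop of 24.8%, again with no overlap (log2 fold change -0.41 ± 0.068 SE, limma adjusted p = 0.0094). Pfkfb4, a second enzyme of this kind, was near 17.2 FPKM in WT and 16.0 FPKM in PGRN KO, with overlapping values.

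The other phosphofructokinase subunits were not called lower. Pfkp, the platelet type, was at 76.1, 81.7 and 80.8 FPKM in WT and at 75.3, 70.4 and 71.0 FPKM in PGRN KO, which did not pass the test (limma adjusted p = 0.096). Pfkm, the muscle type, was at 0.546, 0.556 and 0.367 FPKM in WT and at 1.21, 0.989 and 0.838 FPKM in PGRN KO. All PGRN KO values of Pfkm were higher, but the gene was read from only 83 fragments in WT and 187 in PGRN KO, and its call (log2 fold change 0.43 ± 0.096 SE, limma adjusted p = 0.026) was lost without any one library other than PGRN KO replicate 6. The share of Pfkl in the summed family was 68.2%, 66.4% and 64.9% in WT and 62.0%, 61.5% and 60.1% in PGRN KO, and that of Pfkp was 33.3% ± 1.68 (SD, n = 3) in WT and 38.3% ± 1.06 in PGRN KO. Pfkl therefore stayed the larger part of the family in every library, at a lower share in all 3 PGRN KO libraries.

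**Figure D2:**
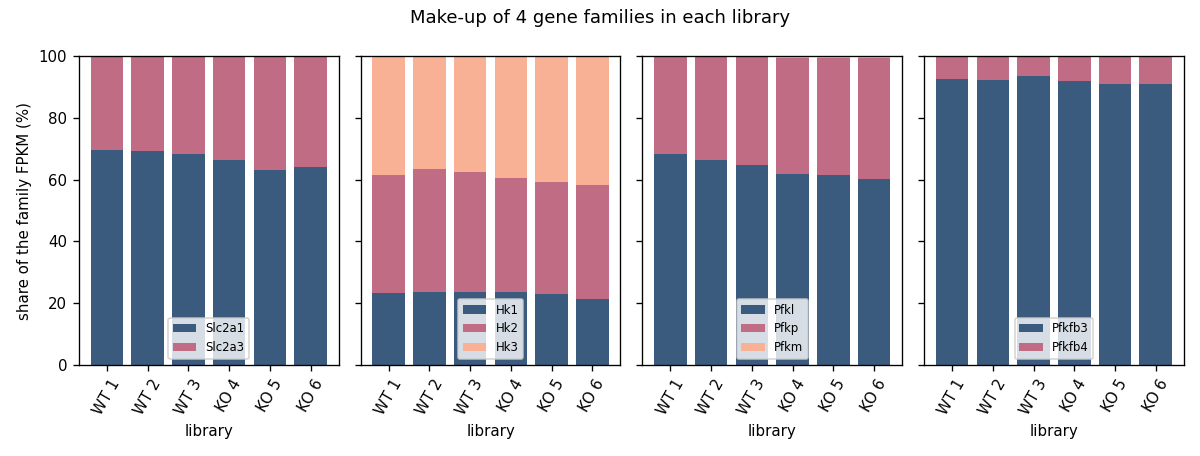
Share of the summed FPKM of a family (vertical axis, %) taken by each of its genes in the 3 WT (1 to 3) and 3 PGRN KO (4 to 6) libraries. Slc2a1, Hk2, Pfkl and Pfkfb3 took a smaller share in every PGRN KO library than in any WT library; Pfkm is too low to be seen, at 0.204% ± 0.0393 (SD) in WT and 0.533% ± 0.0671 in PGRN KO.

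The enzymes between fructose-6-phosphate and lactate were among the most abundant transcripts of the list, with a mean over 500 FPKM for 7 of them. Pgam1 (ENSMUSG00000011752, chr19:41911871-41918664), the phosphoglycerate mutase, was at 932, 923 and 908 FPKM in WT and at 727, 678 and 716 FPKM in PGRN KO. It was lower in every PGRN KO library, by 23.2% (log2 fold change -0.38 ± 0.043 SE, limma adjusted p = 0.0023). Pkm, pyruvate kinase, was at 1111, 1124 and 1053 FPKM in WT and at 993, 979 and 977 FPKM in PGRN KO, and its call was near the threshold (log2 fold change -0.16 ± 0.042 SE, limma adjusted p = 0.046). With quantile normalization the Pkm log2 fold change was 0.0038, so its direction rests on the scaling, and the call was also lost without any one library except WT replicate 3.

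Gpi1, which interconverts glucose-6-phosphate and fructose-6-phosphate, was at 291, 305 and 292 FPKM in WT and at 334, 349 and 326 FPKM in PGRN KO. It rose by 13.7% with no overlap (log2 fold change 0.18 ± 0.043 SE, limma adjusted p = 0.029), a call lost when any one library except PGRN KO replicate 6 was left out. Aldoc (ENSMUSG00000017390, chr11:78322968-78327781), the brain-type aldolase, was at 2.13, 2.94 and 2.45 FPKM in WT and at 4.84, 5.42 and 4.94 FPKM in PGRN KO. This was 2.02 times the WT level (log2 fold change 0.80 ± 0.096 SE, limma adjusted p = 0.0031), and the lowest PGRN KO value was above the highest WT value. Aldoc was nevertheless a trace next to Aldoa, the main aldolase, at 0.125% ± 0.0209 (SD, n = 3) of their sum in WT and 0.262% ± 0.0145 in PGRN KO.

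Ldha, which makes lactate, was at 1236, 1272 and 1235 FPKM in WT and at 1230.0, 1314 and 1268 FPKM in PGRN KO. The genotypes overlapped, and the log2 fold change was 0.026 ± 0.043 SE (limma adjusted p = 0.73). Aldoa, Tpi1, Pgk1 and Eno1 were also abundant and not called, with means in WT of 2009, 975, 1287 and 741 FPKM in that order, and log2 fold changes of -0.056, -0.10, -0.093 and -0.059. With plain totals these 4 values turned positive, at 0.065, 0.016, 0.028 and 0.061. Summed over its 17 rows, the glycolytic enzyme group was 9099 ± 187 FPKM (SD, n = 3) in WT and 8513 ± 9.41 FPKM in PGRN KO, which is 2.09% ± 0.0293 of all FPKM in WT and 2.05% ± 0.0182 in PGRN KO. The share of all FPKM overlapped between genotypes, with 2.07% in PGRN KO replicate 4 against 2.05% in WT replicate 3.

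**Figure D3:**
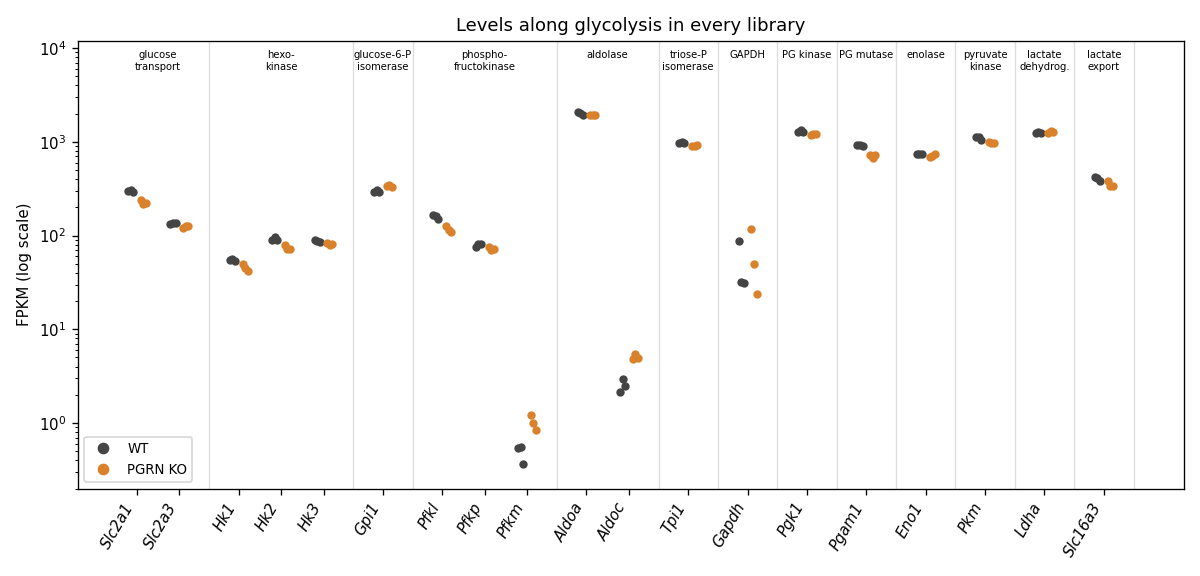
FPKM (log axis) of glucose transporters, glycolytic enzymes in pathway order and the lactate exporter, with 1 point per library (black WT, orange PGRN KO, n = 3 each). Aldoa is the highest and Pfkm the lowest in every library, with Aldoc next, and Gapdh spreads over 23.5 to 116 FPKM within genotypes.

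Gapdh, a common reference gene, was at 86.6, 31.9 and 31.1 FPKM in WT and at 116, 49.7 and 23.5 FPKM in PGRN KO. Replicates of 1 genotype thus differed by far more than the genotypes did (log2 fold change 0.22 ± 0.62 SE, limma adjusted p = 0.85), and its level was far below those of Tpi1 and Pgk1, the steps before and after it. Of the 75-base stretches of its longest coding transcript in GENCODE M21, 80.3% stood exactly in transcripts of 121 other genes, so its reads could be split among copies and its value is uncertain. The same share was 67.5% for Pgk1, 65.4% for Eno1, 46.2% for Bnip3, 40.6% for Pgam1 and at most 19.6% for every other member. Slc2a1, Hk1 and Hk2 were under 2% and Pfkl, Pfkfb3, Aldoc and Vegfa at 0%. Pgam1-ps2, a pseudogene that shares stretches with Pgam1, was at 27.9 ± 3.36 FPKM (SD, n = 3) in WT and 20.1 ± 2.28 FPKM in PGRN KO, and was also called lower (limma adjusted p = 0.032). The counting could split reads between the pair. In the 33 members with a mean of at least 50 FPKM the median coefficient of variation was 2.75% in WT and 4.02% in PGRN KO, against 3.60% and 5.43% for the 953 genes of that level. Besides Gapdh, it was above 10% in either genotype for Ddit4 and Ankrd37.

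Glycogen is built by glycogen synthase (Gys1) and the branching enzyme (Gbe1), broken down by the phosphorylase Pygl, and joined to glycolysis by phosphoglucomutase. None of these 5 genes was called. Pygl, the liver-type phosphorylase, was at 130.0, 132 and 123 FPKM in WT and at 131, 141 and 145 FPKM in PGRN KO, with overlap and a log2 fold change of 0.11 ± 0.053 SE (limma adjusted p = 0.20). Gys1 had the largest log2 fold change of the group, 0.18 ± 0.056 SE (limma adjusted p = 0.070), and its 3 PGRN KO values were above its WT values, as were those of Pgm1 and Pgm2. Pgm2 and Pgm1 are used here as the table has them, and RefSeq gives these loci each other's names. Together the 5 genes summed to 326 ± 5.23 FPKM (SD, n = 3) in WT and 355 ± 9.78 FPKM in PGRN KO, without overlap. With plain totals Gys1, Pgm1, Pgm2 and Pygl were called higher, as was Pdk1. On the deposited scale Pdk1, the kinase that closes the entry of pyruvate into mitochondria, was not called (log2 fold change 0.12 ± 0.044 SE, limma adjusted p = 0.11).

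In the pentose phosphate pathway, G6pdx, the first and rate-limiting enzyme, was at 122, 121 and 117 FPKM in WT and at 111, 113 and 123 FPKM in PGRN KO. The genotypes overlapped, and the log2 fold change was -0.047 ± 0.050 SE (limma adjusted p = 0.57). Pgd, which makes the next NADPH, and Taldo1, a sugar-exchanging enzyme, also overlapped, at mean levels of 213 and 330.5 FPKM in WT. Tkt, transketolase, was at 121, 117 and 111 FPKM in WT and at 129, 130.2 and 129 FPKM in PGRN KO. It was higher in every PGRN KO library, at the edge of the threshold (log2 fold change 0.16 ± 0.043 SE, limma adjusted p = 0.049), and the call was lost without any one library. The pathway's Pgls, Rpia and Rpe, which are not among the 45 genes, were called higher as well (log2 fold changes of 0.49, 0.27 and 0.21). Of 8 other pentose phosphate genes tested, these 3 rose and 0 fell in the limma test, where 7.94% of all genes were called higher. Rpe lay near the threshold (limma adjusted p = 0.047).

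Hif1a, the oxygen-regulated subunit, was at 38.9, 41.2 and 43.9 FPKM in WT and at 32.5, 33.1 and 38.0 FPKM in PGRN KO. Its PGRN KO values were all below its WT values, but the difference missed the threshold (log2 fold change -0.25 ± 0.074 SE, limma adjusted p = 0.060). Its partner Arnt was at 8.24 ± 0.197 FPKM (SD, n = 3) in WT and 7.64 ± 0.341 FPKM in PGRN KO. Egln3, the most abundant of the oxygen sensors, was at 299, 311 and 306 FPKM in WT and at 309, 319 and 321 FPKM in PGRN KO, which overlapped (log2 fold change 0.051 ± 0.038 SE, limma adjusted p = 0.41). Egln1 was at 49.6 FPKM in WT and 49.9 FPKM in PGRN KO. Transcript levels do not report the amount of HIF-1α protein, which is set mainly by its breakdown.

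Vegfa (ENSMUSG00000023951, chr17:46016993-46032369), the angiogenic growth factor and a textbook HIF-1 target, was at 93.7, 94.3 and 83.1 FPKM in WT and at 56.3, 52.3 and 48.8 FPKM in PGRN KO. The highest PGRN KO value was below the lowest WT value, and Vegfa fell by 41.9%, the largest drop of the list (log2 fold change -0.77 ± 0.072 SE, limma adjusted p = 0.0013). P4ha1, a collagen prolyl hydroxylase, was at 104, 109 and 107 FPKM in WT and at 90.8, 91.8 and 97.8 FPKM in PGRN KO. It fell by 12.1% (limma adjusted p = 0.032), a call lost with plain totals (adjusted p = 0.33), with quantile normalization or voom, and without any one library except PGRN KO replicate 6. Ero1l, the disulfide-forming oxidase of the endoplasmic reticulum, went the other way without passing the test, at 344, 368 and 401 FPKM in WT and at 431, 421 and 442 FPKM in PGRN KO (log2 fold change 0.22 ± 0.061 SE, limma adjusted p = 0.052).

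Of the 10 HIF-linked members grouped here, only Vegfa and P4ha1 were called on the deposited scale. HIF-linked genes outside this group were called too, among them Hk2 above and Kdm3a below (both lower) and Fam162a below (higher). Bnip3, which marks mitochondria for removal, was at 258, 279 and 283 FPKM in WT and at 266, 289 and 301 FPKM in PGRN KO, with overlap. Its relative Bnip3l was at 86.1, 87.1 and 87.5 FPKM in WT and at 90.2, 94.2 and 103 FPKM in PGRN KO, where every PGRN KO value was above the WT values but the test was not passed (limma adjusted p = 0.14). Ddit4, an inhibitor of mTOR signalling, was at 182, 182 and 151 FPKM in WT and at 181, 152 and 146 FPKM in PGRN KO, with both genotypes spread widely. Ankrd37, Mxi1, Ndrg1 and Adm were not called either, with log2 fold changes between -0.16 for Adm and 0.11 for Mxi1. Adm was the lowest of the 10 genes, at about 1 FPKM, which limits what can be seen in it. With plain totals Ero1l (adjusted p = 0.010), Bnip3l (0.020), Egln3 (0.023) and Ndrg1 (0.047) were called higher.

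**Figure D4:**
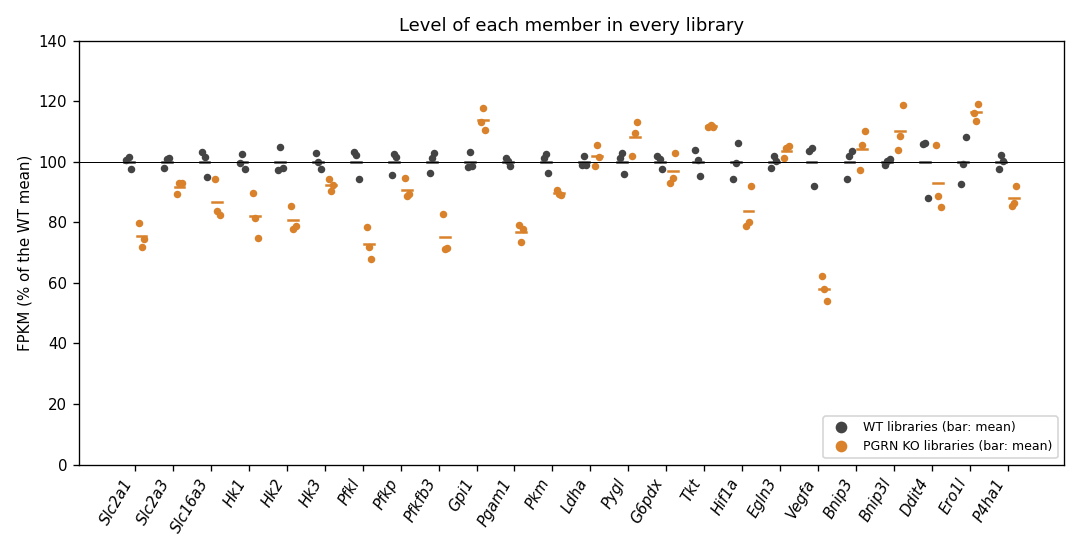
FPKM of 24 members as a percentage of the WT mean (vertical axis), with 1 point per library and a bar at the mean (black WT, orange PGRN KO). Slc2a1, Hk2, Pfkl, Pfkfb3, Pgam1 and Vegfa lie wholly below the WT points, with Vegfa lowest, and Gpi1 and Tkt lie wholly above them. Slc2a3, Slc16a3, Hk1, Hk3, Pfkp, Pkm, Hif1a and P4ha1 also lie wholly below, and Bnip3l and Ero1l wholly above.

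A wider list of 102 genes of the same pathways, of which 80 passed the filter, was counted beside the 45. Of these 80, 9 were called higher and 10 lower in PGRN KO, or 23.8% in all against the 17.9% of all genes. Eno2, the neuronal enolase, dropped most, from 2.64 ± 0.195 FPKM (SD, n = 3) in WT to 1.06 ± 0.0565 FPKM in PGRN KO (log2 fold change -0.82 ± 0.070 SE, limma adjusted p = 0.00089). Lox, the HIF-linked lysyl oxidase, fell from 1.63 to 0.936 FPKM (limma adjusted p = 0.032). Kdm3a, a histone demethylase induced by hypoxia, fell from 47.6 to 35.5 FPKM (limma adjusted p = 0.012). Gaa, which breaks down glycogen in the lysosome, was lower too, with a log2 fold change of -0.32. Counted over the 19 tested HIF-linked genes of this wider list, 7 were called lower and 2 higher. Over all genes tested, 9.95% were called lower and 7.94% higher.

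Among called genes of the wider list with a mean of at least 1 FPKM, those with the largest increases were Pgls (6-phosphogluconolactonase), Fam162a, Ldhb (the heart-type lactate dehydrogenase), Phka2 (a phosphorylase kinase subunit), Slc2a6 (the GLUT6 transporter) and Rpia (ribose-5-phosphate isomerase). Fam162a, a mitochondrial HIF-linked gene, rose from 218 ± 8.58 FPKM (SD, n = 3) to 288 ± 13.7 FPKM (log2 fold change 0.40 ± 0.051 SE, limma adjusted p = 0.004). Slc2a6 rose from 52.4 ± 1.54 to 66.4 ± 3.76 FPKM (limma adjusted p = 0.0084), while Slc2a1 fell. Of the 19 tested HIF-linked genes of the wider list, 7 were called lower and only 2 higher, Fam162a and Car9. Over all genes tested, 9.95% were called lower and 7.94% higher. Car9 was at a mean of only 0.469 FPKM in WT and 1.02 FPKM in PGRN KO. Hilpda, Wsb1, Rab20 and Pdgfb were also called lower, and Car9, Hif3a and Rpe completed the higher calls. These were named after their values were seen.

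**Figure D5:**
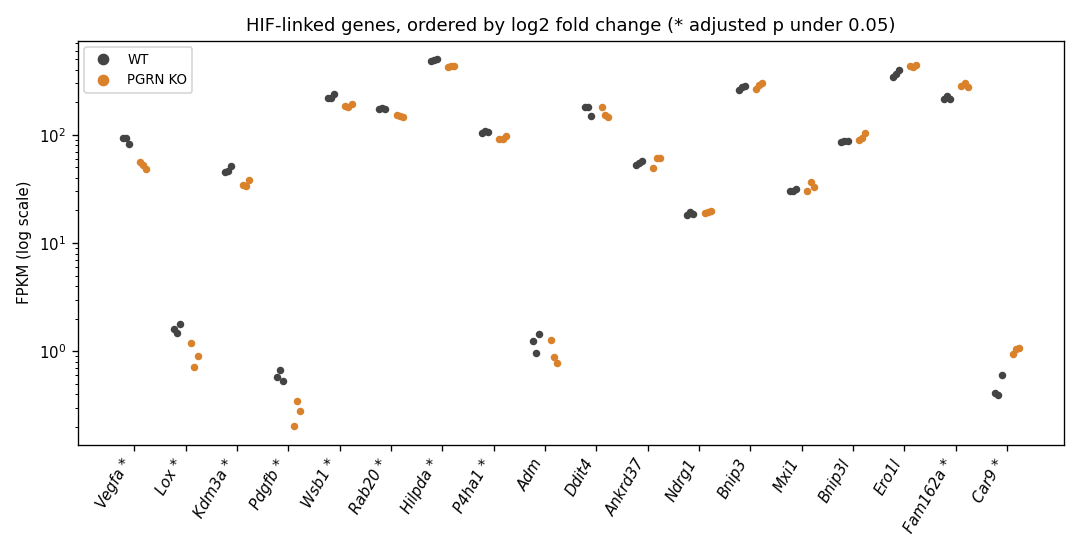
FPKM (log axis) of the 10 HIF-linked members and 8 other HIF-linked genes called by limma, in order of log2 fold change from left to right, with 1 point per library (black WT, orange PGRN KO, n = 3 each). An asterisk marks an adjusted p under 0.05; Vegfa stands at the left end and Car9 at the right end.

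Other markers differed between the genotypes beside these results. The summed level of 5 promyelocyte markers was 135 ± 7.80 FPKM (SD, n = 3) in WT and 643 ± 31.3 FPKM in PGRN KO, and of 10 dividing cell markers 168 ± 0.985 FPKM and 212 ± 5.06 FPKM. B and plasma cell markers, 8 in all, summed to 476 to 495 FPKM in WT and 2222 to 2512 FPKM in PGRN KO, although the B cell marker Ms4a1 was near 0. Igkc alone made up most of this sum, at a mean of 415 FPKM in WT and 2224 FPKM in PGRN KO. The 5 basophil and mast cell markers summed to 2.01 to 2.44 FPKM in WT and 10.9 to 12.4 FPKM in PGRN KO. The 6 erythroid markers summed to 0.975 to 3.14 FPKM in WT and 5.46 to 6.21 FPKM in PGRN KO. For the 5 T and NK cell markers the sums were 2.49 to 3.29 FPKM in WT and 7.54 to 8.66 FPKM in PGRN KO. Most of this was Nkg7 (mean 2.54 FPKM in WT and 7.79 FPKM in PGRN KO), while Cd3d went down from 0.433 to 0.278 FPKM. Monocyte and macrophage markers, 8 in all, summed to 495 to 502 FPKM in WT and 531 to 676 FPKM in PGRN KO. Most of this sum was Ly6c2, at a mean of 401 FPKM in WT and 521 FPKM in PGRN KO, which was called higher. Ccr2 was called lower. Csf1r (45.6 and 40.9 FPKM) and Adgre1 (46.3 and 43.4 FPKM) had lower means in PGRN KO and were not called. Of the 6 tested, 3 log2 fold changes were positive and 3 negative. The part of these cells in the differences of the 45 genes was not tested.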

How the data were processed

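The labels describe 6 libraries of total RNA, 3 WT and 3 PGRN KO, and do not say whether replicates came from separate animals or cultures, so p-values measure the spread between these samples, which may be technical. The authors deposited FPKM values per gene. The submitters' processing notes name HISAT2 2.0.5, featureCounts 1.5.0-p3 and GRCm38, whereas the published methods name HISAT and HTSeq. The NEBNext Ultra library kit, as labelled, does not mark the strand, so antisense reads cannot be told apart. FPKM times gene length gave whole fragments (within 0.05, for 100% of values), which gave the depth. Positions are those of the table, on GRCm38; 44 of the 46 rows have the same position in GENCODE M21.

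Values were taken to log2(FPKM + 1), a pseudocount of 1, genes with a mean under 0.1 were left out, and genotypes were compared with limma 3.58.1 (lmFit, eBayes with trend) in R 4.3.3, with two-sided p-values adjusted over 14807 genes by Benjamini-Hochberg. Family shares were compared by exact permutation in Python 3.11.15. The fit was tested on simulated data. Members and lists were chosen with earlier results of these data known. The genes given in every library were a set of 20 chosen by role plus called members with a mean of at least 1 FPKM, up to 12 with the largest change in each direction. Of the wider pathway list, up to 6 called genes with a mean of at least 1 FPKM were named in each direction, by size of change, and some genes that the counts include are not reported here by name. Alternatives covered the pseudocount, the filter, the scaling, the test and leaving out each library. Exact 75-base stretches shared with other GENCODE M21 transcripts were counted after the data were seen. Replicate numbers are not shared between genotypes.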

Additional observations from a re-analysis of the deposited data

How the results depend on the processing

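Of the 13 called members, 12 kept their sign in every alternative that tested them, and 7 were called in all 16. Pfkm was not tested under the filter at a mean of at least 1 FPKM. The filter and eBayes alternatives change p-values but not fold changes, so they could not change a sign. The exception in sign was Pkm, whose log2 fold change was 0.0038 with quantile normalization, where Eno1 stood at 0.15 and was called higher. The count of members called higher (4) was 1 with no filter, 2 with eBayes without trend, 9 with quantile normalization, 13 with plain totals of fragments and 16 with voom on recovered fragments. Leaving out 1 library gave 1 to 4 higher, and 6 to 8 lower. The median log2 fold change of the members was 0.067 with plain totals, 0.049 with quantile normalization and 0.067 with voom, and -0.064 to -0.037 when 1 library was left out. Voom moved the median over all genes from 0.0026 to 0.12, so its counts carry that shift. In the wider pathway list, 9 called higher became 19 with plain totals and 23 with voom, and 4 to 9 when 1 library was left out (4 or 5 without any one except PGRN KO replicate 4). Its 10 called lower became 5 to 10, with 5 without WT replicate 2 and 6 without PGRN KO replicate 5. The difference in the Pgm1 share was 0.015 percentage points and ranged from -0.20 to 0.29 without 1 library, and that of Pgm2 from -0.29 to 0.20. The cause of these changes was not tested. No paired analysis was possible because the groups share no replicate numbers. Depth limits Pfkm, Adm and the second Aldoa row, all near or under 1 FPKM.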
